A study of Mus musculus with 6 samples.

Results

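The transcripts of 10 RNA-binding regulators were compared in newborn mouse lenses with 1 or 2 working copies of Pax6. The genes were Tdrd7, Caprin2, Elavl1, Elavl2, Elavl3, Elavl4, Qk, Msi1, Msi2 and Celf2. Every probe set annotated to exactly 1 of these symbols was taken, which gave 27 probe sets for 10 of 10 genes, out of 22626 probe sets and 12393 genes tested on the arrays. The samples were 3 wild type mice of NMRI background and 3 Pax6 heterozygous mice (Pax6 lacZ/+), all 1 day old. In the heterozygotes lacZ stands in place of a single Pax6 copy in the germ line, so the loss is not limited to the lens. Each sample held both lenses of 1 pup, and the labels number the samples 1 to 3 within each genotype. The question put to these genes was whether their transcripts differed between the genotypes, and how they varied between the individual lenses.

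RNA-binding proteins act after transcription. They choose exons, hold mRNAs in granules, shield them from decay or hand them to the decay machinery, and set how much protein is made from them. This layer is of particular weight in lens fibers, which lose their nuclei and must then live on the mRNAs and proteins already made. Tdrd7 and Caprin2 are known as lens fiber genes, the neuronal ELAV proteins (Elavl2, Elavl3 and Elavl4) as proteins of neurons, and the rest of the genes are active in many tissues.

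The values were RMA signals on the linear scale, in which the probes of a probe set are summarized to a single number. A signal depends on the probes as well as on the RNA, so levels of different probe sets were not compared as amounts. The 33 probe sets of olfactory receptor genes, taken as a guide to background, had median signals of 8.16 to 13.4. Lens markers were present as the label says: the crystallin Cryaa read between 12315 and 15674, and 14 of 17 measured lens markers had a median of at least 100. Pax6 itself, on its brightest probe set, read 1169, 1760.1 and 963 in wild type replicates 1 to 3 and 942, 1170.1 and 882 in the heterozygotes. Each heterozygote lay below the wild type sample of its number, but the genotypes overlapped (log2 difference of −0.34 ± 0.24 (SE), unadjusted p = 0.208 by limma). Whether these probes lie in the replaced stretch of the gene was not examined. The paper reports reduced Pax6 transcripts in heterozygous lenses by its arrays and by qRT-PCR. Replicate 2 of both genotypes had the lowest array weights (0.724 and 0.725, against 1.08 to 1.3 in the other samples), and values without these samples are given where they matter.

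With limma, 0 of 27 probe sets of the 10 genes passed an adjusted p of 0.05 between the genotypes, where the share over all probe sets was 0%. At an unadjusted p under 0.05 there was 1 of 27, a probe set of Elavl4 with the lower signal in heterozygotes, against 1.99% of all probe sets. Taking each gene at its brightest probe set gave 1 of 10, against 2.24% of all genes. The log2 differences, heterozygote minus wild type, ran from −0.50 to 0.52 with a median of −0.04, and the median over all probe sets was −0.01. With the replicate number as a block, 0 of 27 passed the adjusted threshold (0.00884% of all probe sets did) and 5 of 27 had an unadjusted p under 0.05, where 9.03% of all probe sets did. Those 5 belonged to Celf2 (2 probe sets), Elavl4 (2) and Elavl3 (1). The 3 heterozygous values lay wholly below the wild type values in 3 of 27 probe sets (3.53% of all probe sets) and wholly above in 0 of 27 (2.65%). The 3 were 2 of Elavl4 and 1 of Elavl2. Compared within a replicate number, the heterozygote was lower in 3 of 3 pairs for 8 probe sets (17.1% of all probe sets) and higher in 3 of 3 for 5 (13.8%). Probe sets of a gene share its RNA and all share the 6 arrays, so these counts are not independent observations.

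**Figure D1:**
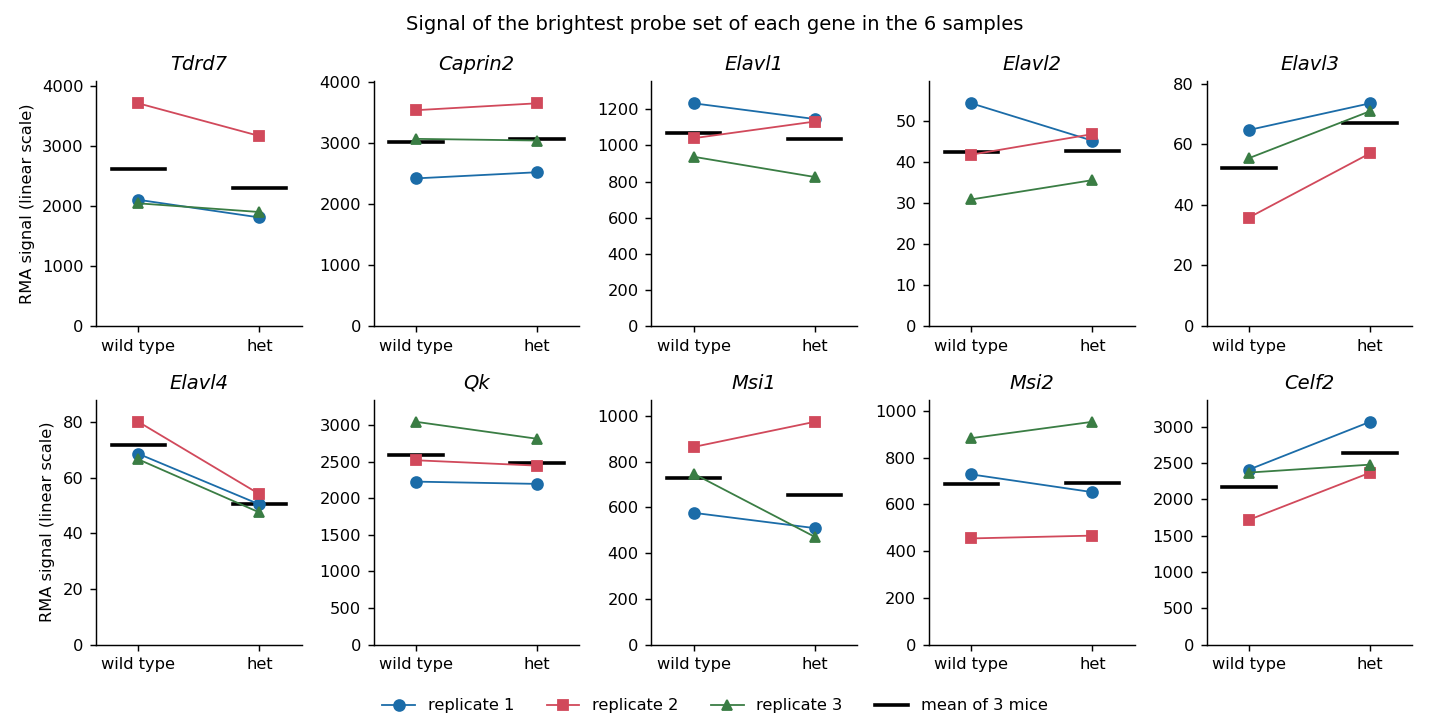
Signal of the brightest probe set of each of the 10 genes (vertical axis, RMA signal on the linear scale from 0) in wild type and heterozygous (het) lenses, with lines joining samples of the same replicate number and black bars for the mean of 3 mice. Elavl4 is the gene whose genotypes do not overlap. The order of the replicate numbers is the same in both genotypes for Caprin2, Elavl1, Elavl3, Elavl4, Qk, Msi2 and Celf2.

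Tdrd7 encodes a Tudor domain protein of RNA granules in lens fibers, and its loss leads to cataract in mice and people. Its probe set read 2105, 3714 and 2046 in wild type replicates 1, 2 and 3, and 1810.4, 3169 and 1901 in the heterozygotes. Replicate 2 was far above the other samples in both genotypes, and the genotypes overlapped widely. The means were 2622 ± 947 and 2294 ± 759.7 (SD, n = 3 mice each). Within each replicate number the heterozygote was lower, at 86%, 85.3% and 92.9% of wild type. The log2 difference was −0.18, with a 95% interval of −0.94 to 0.57 (unadjusted p = 0.579), and −0.42 to 0.05 with the replicate number as a block (unadjusted p = 0.107). Both intervals hold 0, so a difference of Tdrd7 was not resolved with 3 mice of each genotype.

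Of the RefSeq promoter windows of Tdrd7 (300 bases each, from 250 bases before to 50 after a transcript start), 1 held the Maf recognition core TGCTGA. It is shown because Maf proteins drive lens fiber genes and Tdrd7 is the granule gene of the lens among the 10. The window lies at chr4:45972047-45972346 on the plus strand of GRCm38.p6, with the core in capitals.

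Tdrd7 promoter window: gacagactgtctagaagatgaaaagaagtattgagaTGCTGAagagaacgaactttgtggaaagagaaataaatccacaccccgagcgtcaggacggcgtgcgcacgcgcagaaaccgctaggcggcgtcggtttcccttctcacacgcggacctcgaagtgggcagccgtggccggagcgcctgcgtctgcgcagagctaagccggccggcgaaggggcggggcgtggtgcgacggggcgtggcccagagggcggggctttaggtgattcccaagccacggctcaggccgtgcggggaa

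The core, searched on both strands (TGCTGA or TCAGCA), was found in 19.5% of 32851 promoter windows of the same length, so a match is common, and it is no evidence of binding. Of the 25 windows of the genes studied here 5 held it, from Celf2, Elavl4, Qk and Tdrd7.

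Caprin2 encodes an RNA-binding relative of the granule protein Caprin1 that accumulates as lens fibers differentiate. The probe set read 2424, 3544 and 3073 in wild type and 2525, 3657 and 3046 in heterozygous replicates 1, 2 and 3. The order of the replicate numbers was the same in both genotypes, and the 2 samples of each number lay close together, the heterozygote at 104%, 103% and 99.1% of its wild type partner. The means were 3014 ± 562 and 3076 ± 567 (SD, n = 3 mice each). The log2 difference was 0.03 with an interval of −0.45 to 0.51, narrowed to −0.20 to 0.26 with the replicate block. Of the 27 probe sets it had the largest share of its variation tied to the replicate number, 99.1% of the sum of squares of the log2 signals, with 0.462% tied to genotype.

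Elavl1 encodes HuR, the ELAV protein of all cells, which binds AU-rich stretches and protects mRNAs from decay. Its brighter probe set read 1233, 1039.8 and 937 in wild type and 1146, 1132 and 825 in heterozygous replicates 1, 2 and 3. Replicate 3 was lowest in both genotypes, and the genotypes overlapped. This gave a log2 difference of −0.06 (interval −0.49 to 0.38). The other probe set read 957, 744 and 739.9 against 858, 895 and 537, a difference of −0.12 (interval −0.68 to 0.44). In both probe sets the heterozygote was higher in replicate 2 and lower in replicates 1 and 3. Without replicate 2 of both genotypes the differences were −0.14 for the brighter and −0.31 for the other probe set.

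The 3 neuronal ELAV genes were dim in these lenses. Their proteins (HuB, HuC and HuD) bind AU-rich mRNAs and promote neuronal differentiation. Of their 11 probe sets, 8 had medians between 10.5 and 16, at or little above the olfactory receptor probe sets, and each gene had a single probe set well clear of them. Differences at such low signals are pulled toward 0 by the background that all samples share.

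**Figure D2:**
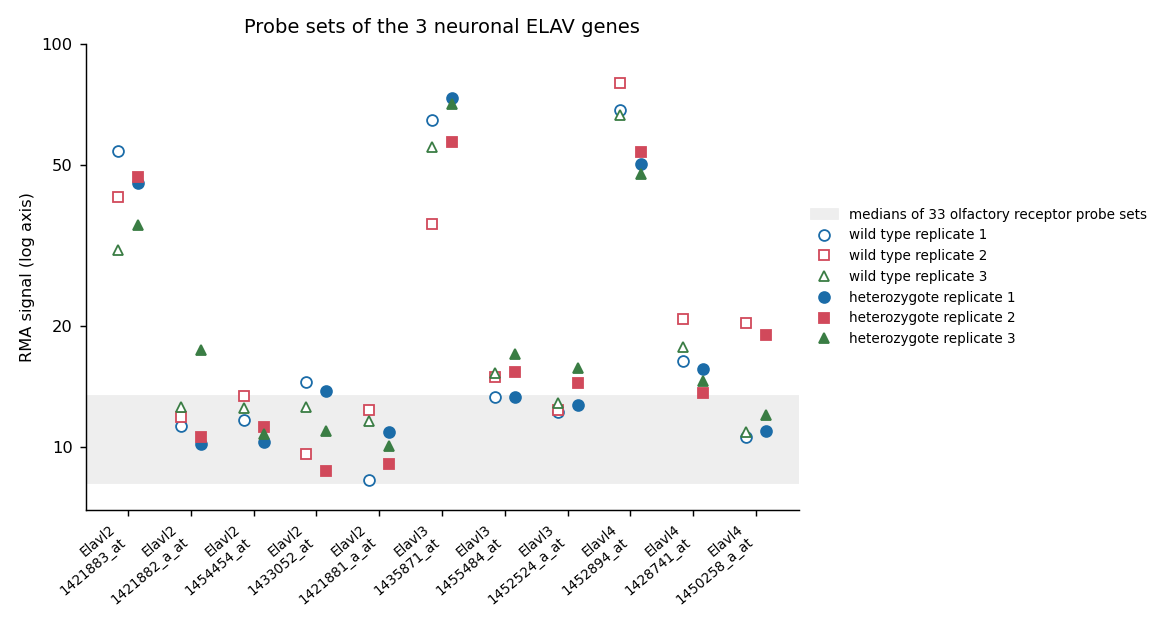
RMA signal (log axis) of the 11 probe sets of Elavl2, Elavl3 and Elavl4 in the 6 samples, with open symbols for wild type, filled symbols for heterozygotes and the symbol shape giving the replicate number. The gray band spans the medians of the 33 olfactory receptor probe sets, 8.16 to 13.4. Only 1421883_at, 1435871_at and 1452894_at stand clear of the band in all 6 samples by a wide margin, and 1452894_at of Elavl4 parts the genotypes.

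Elavl4 (HuD) gave the clearest separation of the 10 genes. Its brightest probe set, 1452894_at, read 68.6, 80.1 and 66.6 in wild type and 50.4, 54.1 and 47.5 in heterozygous replicates 1, 2 and 3. The lowest wild type value was above the highest heterozygous value, and replicate 2 was the highest of its genotype in both. The means were 71.8 ± 7.3 and 50.7 ± 3.31 (SD, n = 3 mice each), so that the heterozygotes stood at 70.6% of wild type, and at 73.5%, 67.5% and 71.2% within the replicate numbers. The log2 difference was −0.50 ± 0.13 (SE), with an interval of −0.81 to −0.19 and an unadjusted p of 0.00656. It did not pass after adjustment (adjusted p = 1.00 by limma, and 0.297 with the replicate block). Over the 16 alternatives that tested this probe set by itself, the unadjusted p ran from 0.00214 to 0.0554. It was under 0.05 in 15 of these, and was not with an intensity trend and a robust prior. The signal filter of 100 left the probe set out. When the probe sets of each gene were averaged, 0 of 10 genes, Elavl4 included, had an unadjusted p under 0.05. Without replicate 2 of both genotypes the difference of 1452894_at was −0.47 (unadjusted p = 0.0227). The study placed this probe set in its own list of changed genes, which was chosen from these same arrays, so its place there is not independent evidence.

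The other probe sets of Elavl4 did not all follow. Probe set 1428741_at, with a median of 16, read 16.4, 20.8 and 17.7 in wild type and 15.6, 13.6 and 14.6 in heterozygotes, again without overlap (log2 difference −0.33 ± 0.14 (SE), unadjusted p = 0.0506). Replicate 1 differed little between the genotypes here (95.1%), and replicate 2 most (65.2%). Without replicate 2 of both genotypes the difference was −0.18 (unadjusted p = 0.276). Probe set 1450258_a_at read 10.6, 20.3 and 10.9 against 11, 19 and 12, with replicate 2 high in both genotypes and a difference of 0.03. Which Elavl4 transcripts each probe set reads was not examined.

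Of the RefSeq promoter windows of the 9 genes that have any in the table used (25 windows, with none for Msi1), the homeodomain core TAATTA was found in 2, both of Elavl4 and overlapping each other. Over all windows 5.29% held it. The first is shown because Elavl4 was the gene that separated the genotypes and Pax6 carries a homeodomain. It lies at chr4:110287478-110287777 on the minus strand of GRCm38.p6 and is written 5′ to 3′ along the gene, with TAATTA and the Maf core (as TCAGCA) in capitals.

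Elavl4 promoter window: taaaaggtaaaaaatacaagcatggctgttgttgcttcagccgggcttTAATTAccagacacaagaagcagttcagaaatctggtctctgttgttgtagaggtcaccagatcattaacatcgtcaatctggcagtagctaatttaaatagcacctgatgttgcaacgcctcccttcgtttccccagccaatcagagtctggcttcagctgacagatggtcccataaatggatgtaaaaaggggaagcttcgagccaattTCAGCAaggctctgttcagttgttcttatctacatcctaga

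The 7 letters TTCACGC, from the sequence bound by the Pax6 paired domain, were in 0 of the 25 windows and in 1.26% of all windows, both strands searched. None of these matches shows that a factor is bound, and a window without a match says only that the letters are not in these 300 bases.

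Elavl3 (HuC), a protein of differentiated neurons, had its only bright probe set, 1435871_at, at 64.7, 35.8 and 55.4 in wild type and 73.5, 57 and 70.9 in heterozygous replicates 1, 2 and 3. The heterozygote was higher in each pair, at 114%, 159% and 128% of wild type, but wild type replicate 1 lay above heterozygous replicate 2, so the genotypes overlapped. Replicate 2 was the lowest in both genotypes. The means were 52 ± 14.8 and 67.1 ± 8.85 (SD, n = 3 mice each). The log2 difference was 0.40 ± 0.24 (SE) with an interval of −0.18 to 0.99 and an unadjusted p of 0.142, and with the replicate block the unadjusted p was 0.0187 and the adjusted p 0.463 (limma). The size rested in part on replicate 2: the difference was 0.16 without wild type replicate 2, 0.27 without replicate 2 of both genotypes, and 0.16 to 0.58 over all samples left out in turn. The remaining 2 probe sets, with medians of 15.1 and 12.8, at or little above background, differed by 0.07 and 0.18. They too were higher in the heterozygote of 3 of 3 pairs. For 1455484_at, however, replicate 1 was level (13.3 against 13.3, 0.00 on the log2 scale).

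Elavl2 (HuB), which besides neurons is known in germ cells, had 5 probe sets. The brightest, 1421883_at, read 54.2, 41.7 and 30.8 in wild type and 45.1, 46.7 and 35.5 in heterozygotes, with replicate 3 lowest in both genotypes and wide overlap. The means were 42.3 ± 11.7 and 42.5 ± 6.08 (SD, n = 3 mice each), and the log2 difference was 0.03 (interval −0.52 to 0.59). Another probe set, 1454454_at, is in the study's own list as lower in heterozygotes. It read 11.7, 13.4 and 12.5 against 10.3, 11.2 and 10.8, which parts the genotypes, but all 6 values are as low as the 8.16 to 13.4 spanned by the medians of the olfactory receptor probe sets. Its log2 difference was −0.21 ± 0.11 (SE, unadjusted p = 0.106), and since that list was drawn from these arrays it adds no independent evidence. The other 3 had medians of 10.5 to 11.8 and differences of −0.13 to 0.05. The bright probe set and the listed one therefore do not give the same picture of Elavl2.

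Qk encodes Quaking, a KH domain protein of the STAR family that guides splicing, circular RNA formation and mRNA stability and is best known from myelin. Its brightest probe set read 2227, 2519 and 3045 in wild type and 2196, 2446 and 2813 in heterozygous replicates 1, 2 and 3. The signal was lowest in replicate 1 and highest in replicate 3 of both genotypes, and the genotypes overlapped almost fully. This gave a log2 difference of −0.06 (interval −0.46 to 0.34). Probe set 1417073_a_at read 1053, 1143 and 1651 against 1047, 1027 and 1428, and 1429318_a_at read 114, 189.6 and 226 against 114, 178 and 206. In these 3 the heterozygote was lower in 3 of 3 pairs, with log2 differences of −0.21 to −0.01, and 91.6% to 98.5% of the variation went with the replicate number. The dim probe set 1425597_a_at did not share this order, with 32.3, 36.1 and 16.9 against 18.2, 37.1 and 24, and replicate 3 was not its highest.

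Msi1 and Msi2 encode the Musashi proteins, which repress or promote translation of their target mRNAs in stem and progenitor cells. The brighter probe set of Msi1 read 576, 864 and 747 in wild type and 509, 974 and 471 in heterozygotes. Replicate 2 was highest in both genotypes, while replicate 3 stood at 63.1% of wild type in the heterozygote and replicate 2 at 113%. The genotypes differed by −0.22 on the log2 scale (interval −0.97 to 0.52, unadjusted p = 0.496). Without heterozygous replicate 2 it was −0.55 with an unadjusted p of 0.038, and without heterozygous replicate 3 it was −0.03, so that a single heterozygous sample decides the size of this value. Without replicate 2 of both genotypes the difference was −0.42 (unadjusted p = 0.0759 by limma). Msi2 read 728, 454 and 883 against 652, 466 and 953, with replicate 2 lowest and replicate 3 highest in both genotypes. Its means were 688 ± 217 and 691 ± 246 (SD, n = 3 mice each), and the log2 difference was −0.00 (interval −0.82 to 0.81, or −0.26 to 0.25 with the replicate block). The second probe set of each gene lay in the background range, with a median of 11.1 for Msi1 and 9.77 for Msi2, and tells nothing of the transcript.

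Celf2 encodes a CUG-binding protein that controls alternative splicing, polyadenylation and mRNA stability in heart, brain and blood cells. All 3 of its bright probe sets had the higher mean in heterozygotes. Probe set 1450069_a_at read 494, 347 and 567 in wild type and 693, 555 and 742 in heterozygous replicates 1, 2 and 3. The heterozygotes stood at 140%, 160% and 131% of wild type within the numbers, and the genotypes overlapped only in that wild type replicate 3 lay just above heterozygous replicate 2. The means were 469 ± 112 and 663 ± 96.7 (SD, n = 3 mice each), and the log2 difference was 0.52 ± 0.22 (SE) with an unadjusted p of 0.0515. With the replicate block the unadjusted p was 0.0029 and the adjusted p 0.315 (limma). Leaving out 1 sample at a time moved the difference between 0.32 (without wild type replicate 2) and 0.67 (without wild type replicate 3), and without replicate 2 of both genotypes it was 0.44.

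The brightest Celf2 probe set, 1423895_a_at, read 2412, 1719.6 and 2371 in wild type and 3071, 2369 and 2480.4 in heterozygotes, and the difference was 0.29 (interval −0.15 to 0.73, unadjusted p = 0.16). The heterozygote was higher in 3 of 3 pairs, but in replicate 3 by only 0.06 on the log2 scale. Probe set 1451154_a_at read 1299, 1011 and 1844 against 1713, 1492 and 1781, a difference of 0.30 (unadjusted p = 0.231), with replicate 3 the exception to the direction. Wild type replicate 2 weighed on both values, which were 0.13 and 0.10 without it and 0.21 and 0.17 without replicate 2 of both genotypes. Replicate 2 was the lowest of its genotype in all 3 probe sets. The dim probe set 1451155_at stayed between 7.52 and 9.75. RNA of whole lenses was measured, in which fewer cells of a type and less RNA per cell cannot be told apart.

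**Figure D3:**
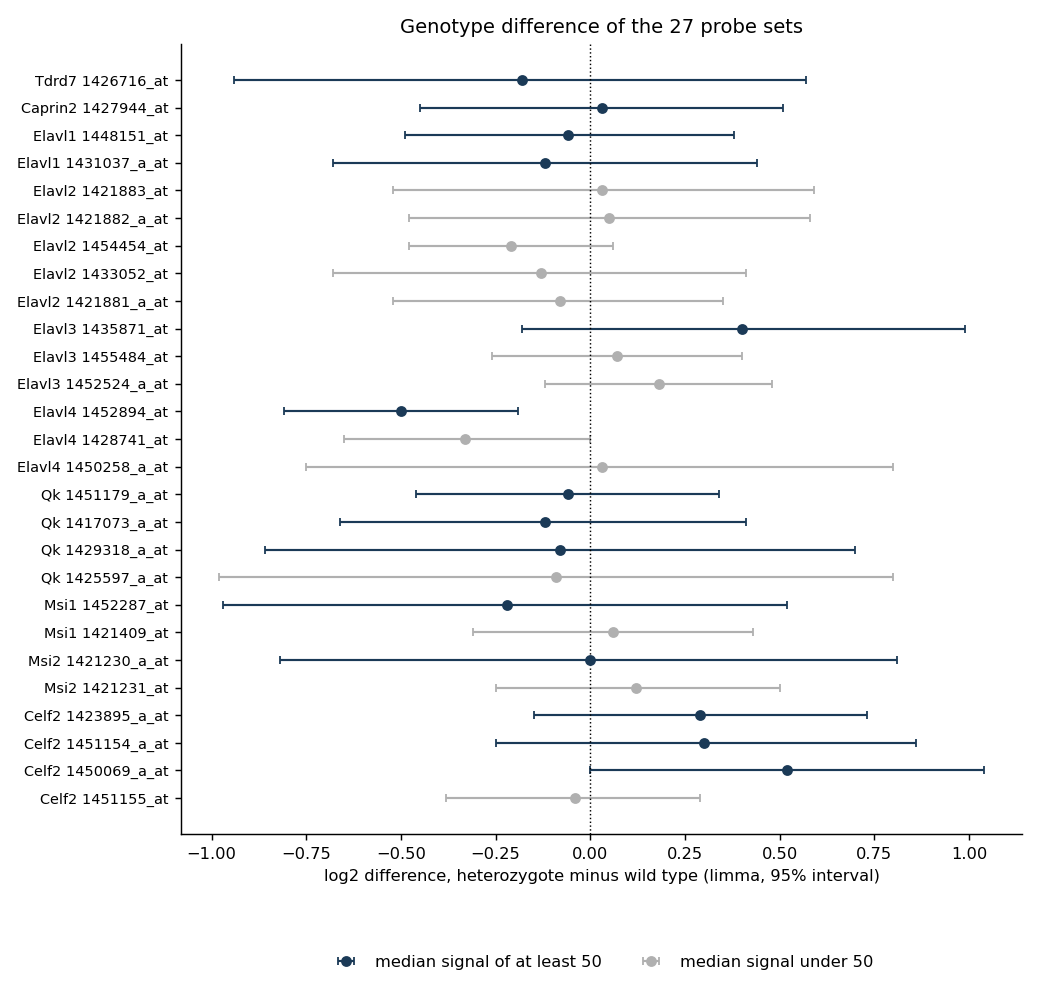
Log2 difference between heterozygous and wild type lenses (horizontal axis) for each of the 27 probe sets, with 95% intervals of the limma fit. Dark points have a median signal of at least 50 and gray points a lower one. The interval of Elavl4 1452894_at (−0.81 to −0.19) is the one that clearly leaves out 0, and the 3 bright Celf2 probe sets all lie to the right of 0.

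For the bright probe sets the replicate number accounted for more of the variation than the genotype did. Of the 12 probe sets with a median of at least 100, 11 had over 50% of their sum of squares tied to the replicate number, with a median of 89.3% and a median of 5.12% tied to genotype. This was not peculiar to these genes: over all 7013 probe sets of that brightness the medians were 83.1% and 4.96%, and 83.1% of them passed the 50% mark. The exception was Celf2 1450069_a_at, with 44.5% tied to the number and 52.6% to genotype. Among the dimmer probe sets, Elavl4 1452894_at had 12.6% and 86.5%. With 3 numbers and 2 genotypes the number has more freedom to take up variation than the genotype, so the shares describe the samples and test nothing. The genes did not vary in the same way: replicate 2 was high for Tdrd7, Caprin2 and Msi1 and low for Msi2, Elavl3 and Celf2, while replicate 3 was high for Qk and low for Elavl1 and Elavl2, in both genotypes and at the brightest probe set. What the numbers share is not stated in the sources used here.

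**Figure D4:**
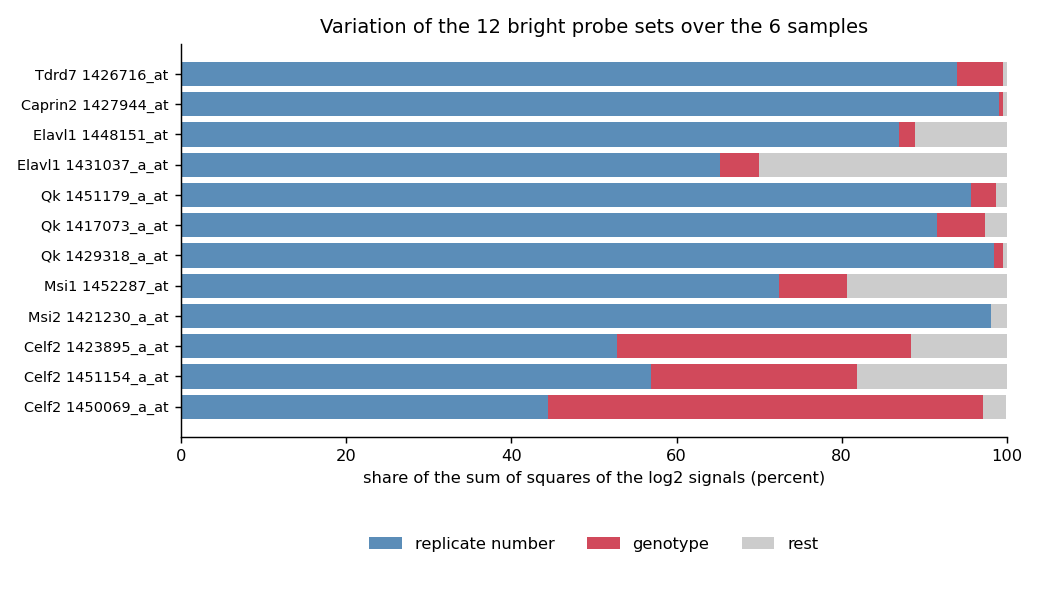
Share of the sum of squares of the log2 signals (percent, horizontal axis) that goes with the replicate number, with the genotype and with neither, for the 12 probe sets with a median signal of at least 100. Celf2 1450069_a_at is the only bar with less than 50% tied to the replicate number (44.5%).

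The genes whose signals ran most like those of 4 of the regulators were found by Pearson correlation of log2 signals over the 6 samples, among 6387 other probe sets with 1 gene and a median of at least 100. All the points share the same arrays and the same replicate numbers, and no p is given. Nearest to Tdrd7 were Tecr, an enzyme of fatty acid elongation (r = 0.998), Pdlim7, an actin-associated PDZ and LIM protein (r = 0.997), and Hsf4, the heat shock factor of lens fibers (r = 0.996). Hsf4 read 205, 609 and 193 in wild type and 163, 515 and 174 in heterozygotes, with the same high replicate 2 as Tdrd7. Nearest to Caprin2 were Arvcf, a catenin of cell junctions (r = 0.994), Ndrg1 (r = 0.994) and the nucleoporin Ranbp2 (r = 0.993). Arvcf read 100.3, 279 and 196 against 108, 270.1 and 182. Nearest to the bright probe set of Elavl2 were Ccnl2 (r = 0.982), the ribosomal protein gene Rps14 (r = 0.976) and Ndufv1 of respiratory complex I (r = 0.972). Nearest to Elavl4 were Emid1 (r = 0.963), Tom1l1 (r = 0.962) and Tm2d2 (r = 0.956). Emid1 read 263, 385 and 233 in wild type and 143, 186 and 163 in heterozygotes, and like Elavl4 parted the genotypes with replicate 2 the highest of each.

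Partners of these proteins in RNA granules and mRNA decay were bright and differed little. Of 24 listed genes 19 were measured, 13 of them with a median of at least 100, and their differences had a median of −0.05, against −0.01 for all genes at their brightest probe set. None passed the adjusted threshold, and 1 had an unadjusted p under 0.05, the germ cell helicase Ddx4. It read 12.7, 11.3 and 12 against 9.97, 10.1 and 9.1, all in the background range. The poly(A)-binding protein gene Pabpc1 read 3484, 4045 and 3742 against 3079.9, 3169 and 3492 (log2 difference −0.21 ± 0.12 (SE), unadjusted p = 0.126). The closest relative of Caprin2 on the list, Caprin1, differed by 0.02.

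Of 17 listed relatives of the regulators 13 were measured, and 12 of them had differences above 0 with a median of 0.09, 0 passing at the adjusted or the unadjusted level. Celf1, the CELF protein best known in lens, was the one below 0, at −0.21 (unadjusted p = 0.441). It read 4057, 4098 and 5610.2 against 3278, 3268 and 5615, so that the heterozygote was lower in replicates 1 and 2 and level in replicate 3. Celf4, a neuronal relative of Celf2, read 51.5, 38.8 and 55.4 against 63.1, 49.5 and 55.1 (0.21, unadjusted p = 0.274). Khdrbs3, a STAR protein like Quaking, read 26.6, 23.1 and 18.9 against 44.1, 40 and 20.6 (0.55 ± 0.31 (SE), unadjusted p = 0.124, or 0.0127 with the replicate block).

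Among other regulators of splicing, stability and translation, 27 of 34 listed genes were measured, with 13 differences above 0 and 14 below and a median of −0.01. None passed the adjusted threshold, and 2 had an unadjusted p under 0.05, 1 in each direction. Cpeb1, which governs cytoplasmic polyadenylation, read 54.4, 59 and 51.2 in wild type and 34.8, 45.7 and 46.4 in heterozygotes (−0.38 ± 0.15 (SE), unadjusted p = 0.043), without overlap. Esrp1, a splicing factor of epithelia, read 29.7, 22.6 and 22.1 against 46.8, 27.8 and 39 (0.59 ± 0.23 (SE), unadjusted p = 0.038), with an overlap of wild type replicate 1 and heterozygous replicate 2.

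Of 13 mRNAs tied in the literature to the regulators or their close relatives, all were measured, and 1 had an unadjusted p under 0.05. Dnase2b, the nuclease that clears DNA from lens fibers and an mRNA tied to Celf1, read 732, 971 and 677 in wild type and 557, 639 and 466 in heterozygotes (−0.51 ± 0.19 (SE), unadjusted p = 0.0334, adjusted p = 1.00 by limma). The genotypes did not overlap, and Dnase2b is in the study's list from these arrays. The paper also reports lower Dnase2b in heterozygotes by qRT-PCR, on RNA prepared separately. Hspb1, a small heat shock protein whose mRNA is lower in Tdrd7-deficient lenses, read 165, 352 and 272 against 319, 525 and 323 (0.59 ± 0.33 (SE), unadjusted p = 0.118, or 0.00793 with the replicate block), higher in the heterozygote of each pair. Crybb3, also tied to Tdrd7, differed by −0.07, Numb, the known Musashi target, by −0.07, and Gap43, stabilized by HuD in neurons, by 0.31 (unadjusted p = 0.368).

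With the replicate block, 1 of 19 granule and decay partners, 1 of 13 relatives, 6 of 27 other regulators and 3 of 13 tied mRNAs had an unadjusted p under 0.05, where 9.83% of all genes did, and 0 passed the adjusted threshold. Without the block, 2.24% of all genes at their brightest probe set had an unadjusted p under 0.05, and 5823 of 12393 had a difference above 0.

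Markers of neighboring cell types are given beside the values of Elavl3, Elavl4 and Celf2. Of 18 measured neuronal markers 16 had differences above 0, with a median of 0.12, where 5823 of 12393 genes were above 0 at their brightest probe set. However, 7 of the 18 had a median signal under 20, close to background. None passed the adjusted threshold. In the blocked fit 3 of 18 had an unadjusted p under 0.05, where 9.83% of all genes did. Without the block 1 of 18 did, against 2.24% of all genes. That was Stmn3, a microtubule regulator, at 283, 171 and 234 against 346, 428 and 386 (0.78 ± 0.21 (SE), unadjusted p = 0.00811). Ina, a neuronal intermediate filament gene, read 80.6, 67.7 and 41.5 against 93.6, 109 and 70.4 (0.55 ± 0.29 (SE), unadjusted p = 0.0965, or 0.00688 with the replicate block). The summed signal of the list ran from 4373 to 4941 in wild type and from 3876 to 5600.1 in heterozygotes. The largest part of it was Uchl1, a ubiquitin hydrolase of neurons, at 2433, 3324 and 2516 against 1849, 3029 and 2221, which was lower in the heterozygote of 3 of 3 pairs (−0.24, unadjusted p = 0.324). The defining neuronal marker Rbfox3 stayed between 9.62 and 13, in the background range, as did Map2 and Syt1. Others were brighter. Snap25 read 155, 187 and 209 against 172, 375 and 212 (0.39, unadjusted p = 0.234 by limma). Tubb3 read 30, 63 and 16.1 against 30.9, 108 and 36.3 (0.66, unadjusted p = 0.336). Stmn2 read 50.6, 51.7 and 41.6 against 48.2, 76.9 and 57.2 (0.32, unadjusted p = 0.156). The paper reports higher Stmn2 in heterozygotes by qRT-PCR, on RNA prepared separately. Besides Uchl1, Nefl was below 0, at 65.5, 21.2 and 22.6 against 26.7, 22.2 and 20.6 (−0.46). None of the differences of Elavl3, Elavl4 or these markers passed the adjusted threshold.

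Of 9 measured markers of retinal progenitors and photoreceptors, 7 had differences above 0 with a median of 0.37, where 5823 of 12393 genes were above 0. An unadjusted p under 0.05 was found for 2 of 9, against 2.24% of all genes. With the replicate block it was also 2 of 9, against 9.83% of all genes, and 0 passed the adjusted threshold. Neurod1, a proneural factor, read 122, 141 and 140.4 against 197, 273 and 189 (0.69 ± 0.17 (SE), unadjusted p = 0.00644), and Otx2, of photoreceptor precursors and pigment epithelium, 194, 156 and 156 against 442, 411 and 185 (0.94 ± 0.34 (SE), unadjusted p = 0.0301). The 2 below 0 were Sfrp2 and Rax. Sfrp2 read 417, 256 and 303 against 335, 252 and 204 (−0.30, unadjusted p = 0.271 by limma). It was lower in each pair, by −0.31, −0.02 and −0.57. Rax read 50.4, 47.7 and 36.3 against 34.4, 65.5 and 35.1 (−0.05). The sums of the list ran from 694 to 882 in wild type and from 703 to 1157 in heterozygotes. The photoreceptor markers Rcvrn and Nrl stayed between 8.36 and 23.7. Crx, another of them, read 18.2, 14.2 and 13.5 against 18.3, 35.7 and 14.5 (0.48, unadjusted p = 0.203 by limma), with heterozygous replicate 2 apart from the rest.

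Blood vessel markers had differences above 0 in 9 of 10 genes, with a median of 0.40. For 7 of 10 the heterozygote was higher in 3 of 3 pairs, as it was for 1785 of 12393 genes at their brightest probe set. The sums ran from 689.7 to 1142 in wild type and from 899 to 1824 in heterozygotes. Tek, an angiopoietin receptor, read 628, 421 and 445 against 927, 604 and 617 (0.52 ± 0.23 (SE), unadjusted p = 0.0657). Pecam1 read 12.4, 9.65 and 9.62 against 20.6, 14.5 and 12.2 (0.55 ± 0.22 (SE), unadjusted p = 0.0449), with the wild type values in the background range. It was the only 1 of 10 with an unadjusted p under 0.05, against 2.24% of all genes. With the replicate block 4 of 10 were at that level, where 9.83% of all genes were, Tek among the 4 at 0.00168. The 10 macrophage markers had mean differences above 0, with a median of 0.33, 0 at an unadjusted p under 0.05, and sums of 451 to 1442 and 277 to 1619. With the replicate block 2 of 10 had an unadjusted p under 0.05, against 9.83% of all genes. Their leading genes by p without the block were Cd68 at 0.68 (unadjusted p = 0.131 by limma) and C1qa at 0.72 (0.183). Cd68 read 15.4, 17 and 13 against 31.7, 34.9 and 12.6, and C1qa 16.3, 12.6 and 15.4 against 42.8, 30.5 and 10.9. The wild type values of both were near background. The pairs did not agree on the direction: 8 of 10 were lower in the heterozygote of replicate 3, among them Csf1r at −1.21 and C1qb at −0.73, and 2 of 10 were higher in 3 of 3 pairs. The part of these cell types in the values of Celf2, Elavl3 and Elavl4 was not tested.

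Among the remaining lists, the 17 measured lens markers had a median difference of −0.06, with 14 below 0, Gja3 at −0.56 (unadjusted p = 0.323) and Maf at −0.29 (unadjusted p = 0.3) leading. The Maf probe set read only 10.1 to 18.8, near background, and its difference came from replicate 1 (−0.89, with −0.02 and 0.03 in replicates 2 and 3). Gja3, a lens connexin, was lower in the heterozygote of 3 of 3 pairs (−0.67, −0.48 and −0.53), and with the replicate block its unadjusted p was 0.00141 (adjusted p = 0.285 by limma). The lens list had sums of 122688 to 148511 in wild type and 118427 to 145642 in heterozygotes. The 9 glial markers had a median of −0.13, with Rlbp1 at −0.28 and Aqp4 at −0.24, and the 5 pigment cell markers a median of 0.02, with Dct at 0.27 and Slc45a2 at −0.10. Cornea markers (Krt14 at 0.07 and Aldh3a1 at 0.11 among 5) and the 2 measured red blood cell markers (Hba-a1 at −0.12, Alas2 at −0.06) had medians under 20 in all cases. In these 5 lists 0 genes had an unadjusted p under 0.05 without the block, and 2 did with it, Gja3 and Hsf4 (Hsf4 at −0.24, unadjusted p = 0.699 without and 0.0488 with the block).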

How the data were processed

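Affymetrix arrays were hybridized with lens RNA, 1 sample per mouse and 50 ng of RNA each, amplified by the NuGEN system. The deposited values are linear intensities that the authors computed with RMA (background correction, normalization between arrays, summary of the probes of a set). Its version is not given in the sources used here. Background compresses ratios of dim probe sets, the arrays hold no depth, and the deposited table matches a smaller array design than the methods name.

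After removal of 64 control probe sets, log2 intensities of the genotypes were compared with limma 3.58.1 (R 4.3.3) without a block, adjusted by Benjamini-Hochberg over 22626 probe sets at a threshold of 0.05. In the platform annotation 20380 probe sets have 1 gene, 691 several and 1555 none, and 20351 matched RefSeq (GRCm38.p6), the source of the promoters. The fit was tested on simulated data.

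The members and gene lists were chosen with earlier results of these data known. Named were all member probe sets, Pax6, the 2 genes of each list with the smallest p at the brightest probe set, and the 3 nearest genes of 4 members. Caprin1, Celf1, Crybb3, Numb, Gap43, Cryaa, Rbfox3, Map2, Syt1, Rcvrn, Nrl, Uchl1 and the block p of Hsf4 were added after their values were seen. The same holds for Csf1r, C1qb, Snap25, Stmn2, Tubb3, Nefl, Crx, Sfrp2 and Rax. Listed genes without a probe set were not analysed here, and the authors' list of changed genes served only to mark which probe sets it holds.

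Deviations from the genotype means correlated at 0.645, 0.734 and 0.604 between samples of the same replicate number and at −0.496 to −0.0751 between others. Deviations cancel out within a genotype, so the negative values follow in part from the positive ones and are no separate evidence of pairing. Every same-numbered pair was over 0.1, and the numbers were taken to pair the samples. Alternatives were other normalizations (quantile, median), signal filters of 50 and 100, other variance models and sample weights, the replicate block, the methods' t-test, other choices of probe sets, and leaving out samples (replicate 2 of both genotypes was chosen after seeing the data). Figures used matplotlib 3.10.9.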

Additional observations from a re-analysis of the deposited data

How the results depend on the processing

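The count of 0 of 27 probe sets past the adjusted threshold was 0 under every alternative run. The count at an unadjusted p under 0.05 was 1, and it was 3 with quantile normalization, 2 with median centring, 0 with a signal filter of 100, 0 with an intensity trend and robust prior, 2 with array weights, 5 with the replicate block, 3 and 2 with the methods' t-test on log2 and linear signals, 2 without probe sets whose IDs mark shared or similar transcripts (_s, _x or _a), 0 with the mean of a gene's probe sets and 2 without replicate 2 of both genotypes. The t-test gave 665 and 647 over all probe sets at that level and 0 after adjustment. Leaving out 1 sample at a time moved the count from 1 to 3 and the median difference from −0.04 to 0.05. The causes were not tested.

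Elavl4 1452894_at, Elavl3 1435871_at and the 3 bright Celf2 probe sets kept their sign throughout. With 1 sample left out they ranged from −0.55 to −0.42 (Elavl4), 0.16 to 0.58 (Elavl3), 0.13 to 0.38 (Celf2 1423895_a_at), 0.10 to 0.53 (1451154_a_at) and 0.32 to 0.67 (1450069_a_at), the lowest Elavl3 and Celf2 values being those without wild type replicate 2. The blocked fit changed no adjusted call. Small differences changed sign in 32 of 162 values with 1 sample left out and in 7 of 256 otherwise. Leaving out 1 sample gave −0.44 to 0.10 for Tdrd7, −0.12 to 0.16 for Caprin2, −0.15 to 0.10 and −0.25 to 0.12 for the brighter and dimmer Elavl1 probe sets. For Elavl2 it gave −0.17 to 0.23 (1421883_at), −0.20 to 0.19 (1421882_a_at), −0.30 to 0.03 (1433052_at) and −0.26 to 0.03 (1421881_a_at). It gave −0.01 to 0.16 for Elavl3 1455484_at and −0.22 to 0.33 for Elavl4 1450258_a_at. For Qk the ranges were −0.16 to 0.06 (1451179_a_at), −0.28 to 0.07 (1417073_a_at), −0.36 to 0.17 (1429318_a_at) and −0.43 to 0.15 (1425597_a_at). They were −0.04 to 0.15 for Msi1 1421409_at, −0.28 to 0.25 for Msi2 1421230_a_at and −0.13 to 0.05 for Celf2 1451155_at. Msi2 1421230_a_at was 0.01 with quantile normalization and 0.00 with the t-test on linear signals, and Elavl2 1421883_at was −0.01 with array weights. Without replicate 2 of both genotypes Elavl2 1421883_at was −0.03, Elavl2 1421881_a_at 0.09, Msi1 1421409_at −0.00 and Celf2 1451155_at 0.09. The number of arrays and the low signal of 13 of 27 probe sets (median under 50) limit what can be seen.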
